A study of Mus musculus with 44 samples.

Results

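The genes described here are 10 genes of fatty acid synthesis and desaturation: Srebf1, Acly, Acaca, Fasn, Scd1, Scd2, Elovl5, Elovl6, Fads1 and Fads2. They were chosen by name, as the entries whose gene symbol is one of these 10, by a rule that uses no measured value, although earlier results of these data were known when the list was made. All 10 were found among the 22674 genes of the table for the maturation window and among the 18274 genes of the table for the ovulation window.

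RNA was sequenced in 44 libraries of ovarian follicles from the outbred CD-1 mouse, labelled as wild type. In the maturation window, 11 control libraries of follicles given DMSO, a solvent, were compared with 10 libraries of follicles given PFNA (perfluorononanoic acid, one of the per- and polyfluoroalkyl substances). In the ovulation window, all follicles had received hCG (human chorionic gonadotropin, the hormone that triggers ovulation), and 12 libraries with hCG alone were compared with 11 libraries with hCG and PFNA. Dose, exposure times, animal ages and batches are not in the labels, and nothing in them says that the libraries of a group came from separate animals, so p-values measure the spread between these libraries, which may be partly technical.

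Fatty acids are built in the cytosol from acetyl units. Citrate leaves the mitochondrion and is split by ATP citrate lyase (Acly) into acetyl-CoA, acetyl-CoA carboxylase (Acaca) turns this into malonyl-CoA, and fatty acid synthase (Fasn) joins the units into palmitate. ELOVL elongases lengthen the chain, stearoyl-CoA desaturases (Scd1, Scd2) make monounsaturated fatty acids, and Fads1, Fads2 and Elovl5 turn dietary polyunsaturated precursors into long-chain ones such as arachidonic acid, the substrate of prostaglandin synthesis. Srebf1 encodes SREBP-1, a membrane-bound transcription factor that is released by cleavage when lipids are low and that switches on most of the other genes. In the follicle, granulosa and theca cells hold lipid that serves membranes, steroid synthesis and energy.

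The promoters of Fasn and Elovl5 are shown because Fasn had the largest fall and Elovl5 the largest rise of the 10 genes in the ovulation window. Each run is the 250 bases before a start site, from RefSeq on GRCm38.p6, with capitals on the letters CCAAT or their reverse complement, the box bound by the factor NF-Y. Fasn lies on the minus strand, chr11:120824548-120824797, and Elovl5 on the plus strand, chr9:77917115-77917364.
Fasn: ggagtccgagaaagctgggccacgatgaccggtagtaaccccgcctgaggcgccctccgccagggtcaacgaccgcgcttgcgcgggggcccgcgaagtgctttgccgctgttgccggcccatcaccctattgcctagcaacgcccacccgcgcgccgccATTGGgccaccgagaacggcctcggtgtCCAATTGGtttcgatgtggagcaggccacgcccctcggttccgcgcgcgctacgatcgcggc
Elovl5: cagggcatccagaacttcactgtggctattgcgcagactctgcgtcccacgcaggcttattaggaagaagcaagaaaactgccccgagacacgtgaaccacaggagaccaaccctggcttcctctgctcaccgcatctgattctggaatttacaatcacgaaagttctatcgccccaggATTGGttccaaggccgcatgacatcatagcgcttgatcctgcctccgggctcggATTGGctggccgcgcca
The Fasn window held 3 matches, of which 2 overlap, and the Elovl5 window held 2. The table held 9 promoters for 7 of the 10 genes, and on either strand CCAAT was found in those of Srebf1 (2 of its 3 start sites), Fasn and Elovl5, against 33.8% of 32536 promoters. The letters TCACNCCAC, searched on both strands as a sterol response element, were found in none of the 9 promoters and in 1.04% of all promoters. The only Acaca start site searched, at 84195438, lies inside the gene's span of 84129672 to 84401651, and the 5' end of that span was not searched. CACGTG was found at Elovl5 and in 6.04% of all promoters. A match is a description of letters, not a site of binding. Likewise, a missing match to these exact letters in 250 bases does not show that an element is absent. Srebf1 has 3 start sites here that a gene-level count cannot tell apart.

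Values of the maturation window are TPM, an abundance scaled to the same total in every library, here divided by the span of each gene in the genome, introns included, so they compare libraries and not genes. The reads behind them could be recovered, and amounted to 15123999 to 25838632 per library. The ovulation window holds estimated counts, 10600931 to 19511531 per library, given here as CPM, counts scaled to a common library size with TMM factors. All 8 granulosa cell markers and all 10 oocyte markers were above 0 in some library of each group. Figla, an oocyte marker, was too low to be tested in either window. On the first principal component of the maturation window, PFNA replicates 1 and 2 scored -18.1 and -10.6, among the controls, and the other PFNA libraries scored 33.4 to 48.8. Results of that window are therefore also given without these libraries. In the ovulation window the component separated the groups.

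During maturation, 6 of the 10 genes were lower with PFNA (limma adjusted p under 0.05 over all genes tested) and 0 were higher. These were the regulator Srebf1, the supply enzyme Acly, Fasn, Scd1, Fads1 and Fads2, with changes from -25.4% (Scd1) to -33.3% (Fads2) on the log scale. Over all 13712 genes tested, 29.4% were called, 16.1% lower and 13.3% higher. The median log2 fold change was -0.43 over the 10 genes and 0.023 over all genes. Acaca, Scd2, Elovl5 and Elovl6 did not pass the test.

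Srebf1 (chromosome 11, 60199089 to 60222581, GRCm38) had a lowest, median and highest level of 84.9, 123 and 132 TPM in controls and of 60.8, 82.0 and 115 TPM with PFNA. All 10 PFNA libraries lay below the control median and 6 below every control. Its log2 fold change was -0.48 (SE 0.10, limma adjusted p = 0.0013), and -0.59 without PFNA replicates 1 and 2, the PFNA libraries with the highest levels (115 and 109 TPM). Acly (chromosome 11, 100476353 to 100528000) had levels of 71.6, 95.1 and 126 TPM in controls and of 60.2, 77.1 and 88.5 TPM with PFNA. Its groups overlapped, with 4 PFNA libraries below every control and 10 below the control median. The log2 fold change of Acly was -0.43 (SE 0.098, limma adjusted p = 0.0023).

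For Acaca (chromosome 11, 84129672 to 84401651), which makes malonyl-CoA, the levels were 3.30, 4.76 and 5.77 TPM in controls and 2.96, 3.80 and 5.94 TPM with PFNA. The groups overlapped over nearly their whole range, and the log2 fold change of -0.17 (SE 0.11) had a limma adjusted p of 0.24. Fasn (chromosome 11, 120805846 to 120824547) stood at 289, 473 and 584 TPM in controls and at 219, 370 and 425 TPM with PFNA. All 10 PFNA libraries were below the control median, but only replicates 7 and 10, at 237 and 219 TPM, were below every control. The lowest control, replicate 11 at 289 TPM, stood apart from the next, replicate 12 at 390 TPM. The log2 fold change of Fasn was -0.45 (SE 0.12, limma adjusted p = 0.0087).

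Scd1 and Scd2 are neighbouring genes on chromosome 19 for the enzymes that place the first double bond. Scd1 (44394455 to 44407879) had levels of 110, 147 and 200 TPM in controls and of 76.1, 106 and 150 TPM with PFNA, with 6 PFNA libraries below every control. It was lower by a log2 fold change of -0.42 (SE 0.13, adjusted p by limma = 0.015). Scd2 (44293674 to 44306864) had levels of 2497, 3563 and 4081 TPM in controls and of 1687, 3096 and 3736 TPM with PFNA. Its PFNA libraries spread widely, with replicates 7 and 10 at 1795 and 1687 TPM and 8 others inside the control range, and its log2 fold change of -0.24 (SE 0.14) had a limma adjusted p of 0.21.

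The elongases did not pass the test during maturation. Elovl5 (chromosome 9, 77917364 to 77984519), which lengthens polyunsaturated chains, had medians of 35.0 TPM in controls and 36.5 TPM with PFNA and a log2 fold change of 0.02 (SE 0.072, adjusted p by limma = 0.84). Elovl6 (chromosome 3, 129532355 to 129638495), which turns palmitate towards stearate, had medians of 35.1 and 37.1 TPM and a log2 fold change of -0.01 (SE 0.17, adjusted p by limma = 0.98). Its coefficient of variation was 20.2% in controls and 35.4% with PFNA, where the libraries ran from 18.1 to 57.6 TPM.

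Fads1 and Fads2, neighbours on chromosome 19 that encode the delta-5 and delta-6 desaturases, had the largest differences of the 10 genes in this window. Fads1 (10182888 to 10196877) had levels of 242, 307 and 437 TPM in controls and of 138, 234 and 259 TPM with PFNA, with 8 of 10 PFNA libraries below every control. Fads2 (10062765 to 10101746) had levels of 61.8, 77.1 and 134 TPM in controls and of 34.4, 56.9 and 72.4 TPM with PFNA, with 6 below every control. Their log2 fold changes were -0.56 (SE 0.12, limma adjusted p = 0.001) and -0.58 (SE 0.13, limma adjusted p = 0.0026). For none of the 10 genes did every PFNA library lie below every control, which 0.788% of all genes tested did, and for none did every PFNA library lie above every control, which 0.489% did. Control replicate 11 was the lowest control for all 10 genes, so counts below every control depend on it. For Fads1 the next lowest control, replicate 8, was at 269 TPM, above the highest PFNA library at 259 TPM.

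**Figure D1:**
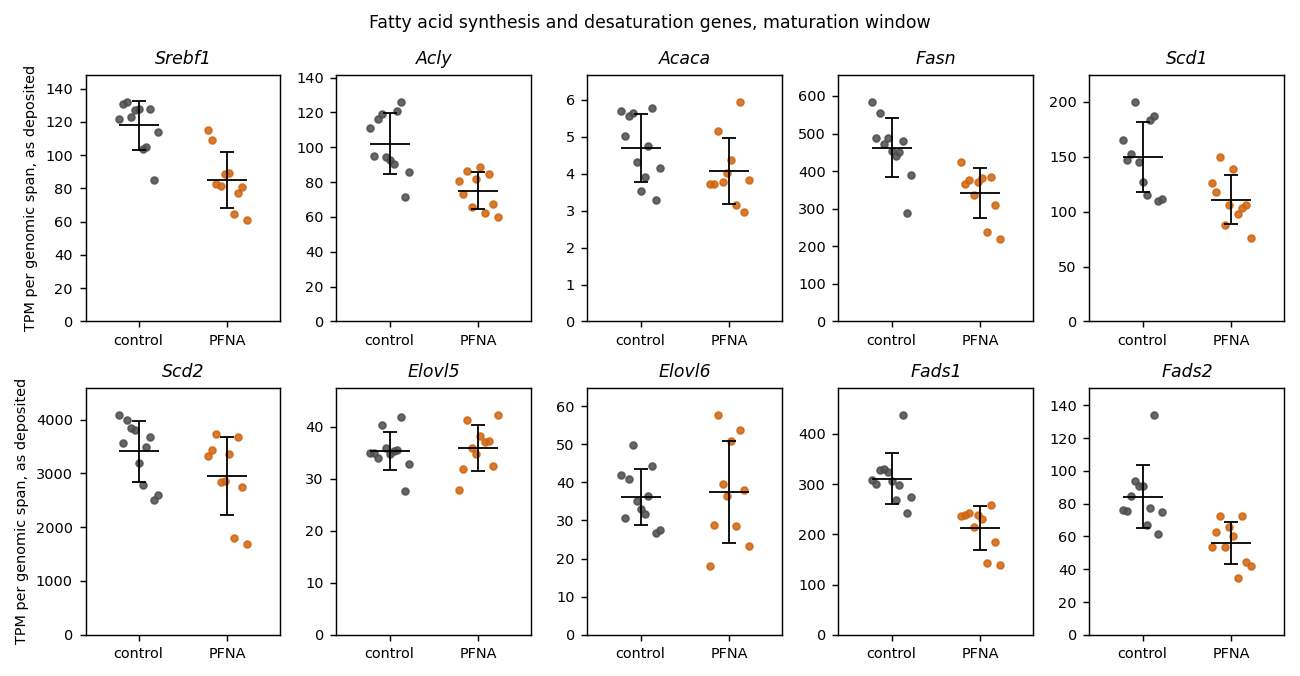
Level of each gene in TPM per genomic span (vertical axes, from 0) in the 11 control and 10 PFNA libraries of the maturation window, with 1 point per library and the mean and SD in black. Fads1 and Fads2 show most PFNA points below the controls, Elovl5 and Elovl6 overlap, and PFNA replicates 7 and 10 are the lowest 2 points of Fasn, Scd2 and Fads1.

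The same 6 genes were called lower by edgeR's quasi-likelihood test on the recovered reads, with log2 fold changes from -0.45 (Fasn and Scd1) to -0.60 (Fads2), where 32.6% of 14801 genes were called, 16.6% lower and 16.0% higher. They were also called without PFNA replicates 1 and 2. As these libraries were chosen for scoring among the controls, leaving them out can enlarge differences and is no independent check. Markers of other cells moved in this window. The summed level of 10 oocyte markers was 102 to 160 TPM in controls and 0.305 to 295 TPM with PFNA, where 7 libraries were at 7.37 TPM or less and replicates 1, 2 and 10 were at 105, 81.7 and 295 TPM. With the oocyte marker share as a covariate 7 of the 10 genes were lower, the 6 above and Scd2 (log2 fold change -0.41, limma adjusted p = 0.047). The summed level of 8 granulosa markers was 39887 to 61635 TPM in controls and 13251 to 46257 TPM with PFNA, lowest in replicates 10 and 7, the libraries lowest for Srebf1, Fasn, Scd2 and Fads1. In controls most of that sum was Inha, at 34970 ± 4487 TPM. Foxl2 was the granulosa marker not called (log2 fold change -0.22, limma adjusted p = 0.09). Of 8 proliferation genes all 8 were called lower, with a sum of 332 to 595 TPM in controls and 65.5 to 397 TPM with PFNA. By limma 9 of 9 oocyte and 7 of 8 granulosa markers tested were called lower and 0 higher, 1 of 8 theca and stroma markers was called higher and 1 lower, 0 of 3 endothelial markers were called, and 1 of 2 immune markers was called higher. The part of the granulosa and proliferation markers in the results was not tested, and in whole follicles fewer cells of a type and less RNA per cell cannot be told apart.

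During ovulation, 6 of the 10 genes were lower with PFNA and 2 were higher (edgeR adjusted p under 0.05), against 73.2% of all 13441 genes tested, 35.2% lower and 38.0% higher. Acly, Acaca, Fasn and Scd1 changed by -60.1% (Acaca) to -66.2% (Fasn), Scd2 and Fads2 were lower by less, and Elovl5 and Fads1 were higher. Srebf1 and Elovl6 did not pass the test. The median log2 fold change was -0.55 over the 10 genes and 0.039 over all genes. As most genes tested differed in this window, a share of 8 of 10 is near the background, and the sizes and the order within the pathway describe these genes better than the count does.

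Srebf1 had levels of 167, 184 and 201 CPM in controls and of 160, 186 and 227 CPM with PFNA. Its log2 fold change of 0.04 (SE 0.06) had an edgeR adjusted p of 0.57. PFNA libraries lay on both sides of the controls, 3 below the lowest and 3 above the highest. The spread was wider with PFNA, with a coefficient of variation of 12.2% against 6.09%.

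The 3 enzymes of palmitate synthesis were lower in every PFNA library than in any control. Acly had levels of 857, 1015 and 1453 CPM in controls and of 266, 342 and 704 CPM with PFNA, a log2 fold change of -1.49 (SE 0.15, adjusted p by edgeR = 1.4e-09). Acaca had levels of 72.1, 88.6 and 115 CPM in controls and of 28.3, 35.3 and 46.1 CPM with PFNA, a log2 fold change of -1.33 (SE 0.092, adjusted p by edgeR = 2.2e-12). Fasn had levels of 542, 600 and 704 CPM in controls and of 155, 209 and 246 CPM with PFNA. Its log2 fold change of -1.56 (SE 0.067, adjusted p by edgeR = 3.2e-16) was the largest of the 10 genes, at 2.96-fold lower, and its spread among the smallest, at 7.56% in controls and 12.1% with PFNA. Over all genes tested, 14.1% had every PFNA library below every control and 11.9% had every PFNA library above.

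Scd1 had levels of 163, 228 and 345 CPM in controls and of 53.1, 78.7 and 186 CPM with PFNA. Of the 11 PFNA libraries 10 lay below every control, and replicate 6, at 186 CPM, lay inside the control range. The log2 fold change of Scd1 was -1.47 (SE 0.19, edgeR adjusted p = 1.5e-07). Scd2 had levels of 1338, 1607 and 2060 CPM in controls and of 749, 1044 and 1460 CPM with PFNA, and 10 of 11 PFNA libraries were below every control. It was lower by a log2 fold change of -0.60 (SE 0.09, adjusted p by edgeR = 1.5e-06). Of the 50-base windows of the longest Scd1 transcript, 3.03% also occur in Scd2, and of those of Scd2 2.68% occur in Scd1. Reads there could be assigned to either gene, in both windows of the study. As Scd2 stood far above Scd1, with control medians of 1607 and 228 CPM, a larger share of the Scd1 level could be affected. That share was not measured.

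Elovl5 was higher with PFNA. Its levels were 156, 184 and 235 CPM in controls and 197, 297 and 745 CPM with PFNA, with 9 of 11 PFNA libraries above every control. The log2 fold change was 0.83 (SE 0.16, edgeR adjusted p = 5.6e-05), and 0.63 without PFNA replicate 6, the library at 745 CPM. Elovl6 had levels of 86.2, 103 and 121 CPM in controls and of 61.5, 96.2 and 236 CPM with PFNA, and its log2 fold change of 0.11 (SE 0.15) had an edgeR adjusted p of 0.52. Here too replicate 6 was the highest library, and without it the value was -0.07.

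Fads1 had levels of 125, 145 and 248 CPM in controls and of 153, 197 and 275 CPM with PFNA. All 11 PFNA libraries lay above the control median and 2 above every control, and the log2 fold change was 0.36 (SE 0.12, edgeR adjusted p = 0.012). Fads2 had levels of 106, 138 and 340 CPM in controls and of 59.2, 105 and 196 CPM with PFNA. Control replicates 4 and 5 stood high for both genes, at 312 and 340 CPM of Fads2 and at 243 and 248 CPM of Fads1. The next highest Fads1 control was at 167 CPM. The log2 fold change of Fads2, -0.49 (SE 0.22), passed narrowly (edgeR adjusted p = 0.046). The call was lost without PFNA replicate 2, 4, 5, 8, 9, 10 or 11 or control replicate 2, 4, 5 or 6, with adjusted p from 0.054 to 0.11 (edgeR), and in 4 of 6 other alternatives, with adjusted p from 0.054 to 0.16.

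**Figure D2:**
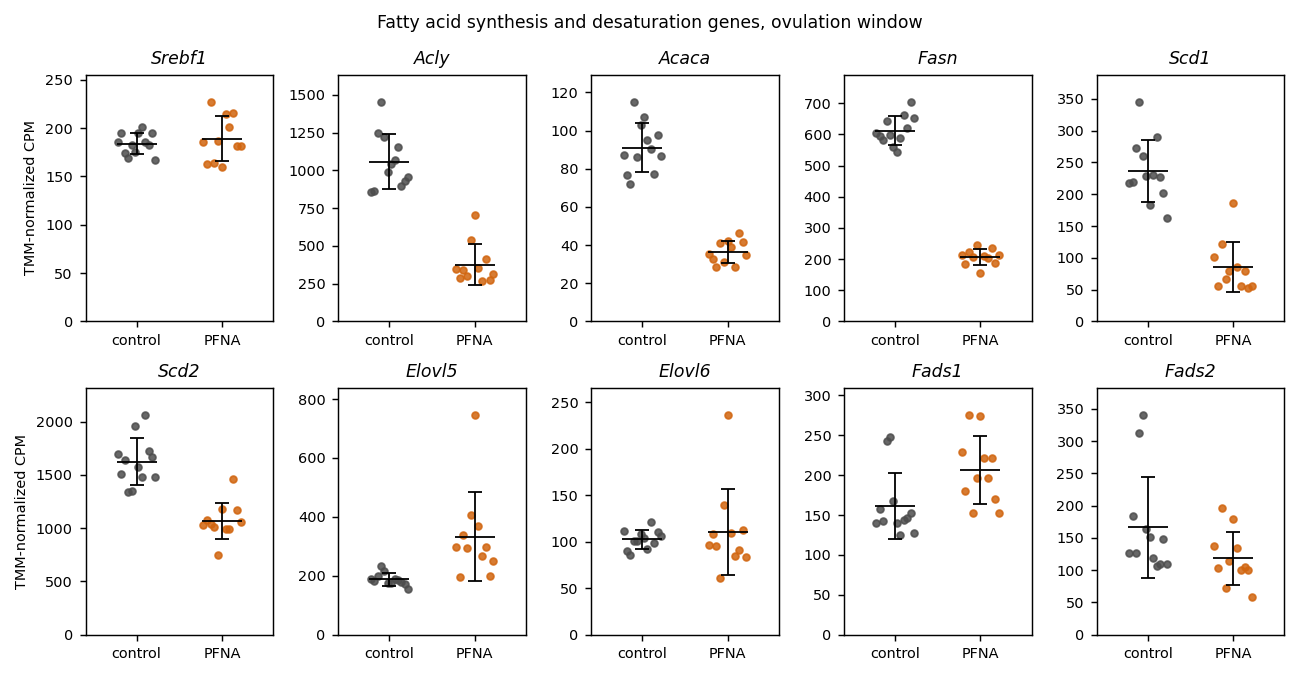
Level of each gene in TMM-normalized CPM (vertical axes, from 0) in the 12 control and 11 PFNA libraries of the ovulation window, with 1 point per library and the mean and SD in black. Acly, Acaca and Fasn show no overlap between the groups, Elovl5 is higher with PFNA, and PFNA replicate 6 is the highest PFNA point of Acly, Scd1, Elovl5 and Elovl6.

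Markers of other cell types and proliferation genes moved in this window as well. The summed level of 5 endothelial markers was 30.0 to 110 CPM in controls and 39.1 to 319 CPM with PFNA, and all 5 were called higher. The sum of 8 theca and stroma markers was 173 to 1185 CPM in controls and 864 to 2045 CPM with PFNA, with 6 of 8 called higher and 1 lower. For 10 oocyte markers the sums were 61.3 to 269 and 13.9 to 417 CPM, with 5 of 9 tested called higher. The 8 granulosa markers summed to 6417 to 8927 CPM and 5612 to 9236 CPM, with 6 called higher and 1 lower. Most of the control sum was Inha, the gene called lower, at 7352 ± 822 CPM, so the sums hide the rises of the others. The 5 immune markers summed to 1.35 to 98.2 and 2.79 to 132 CPM, with 1 called higher. Adipocyte markers, of which 4 of 5 are in this table and 0 of 5 in that of the maturation window, summed to 3.79 to 12.5 CPM in controls and 1.74 to 7.39 CPM with PFNA, and of 2 tested 1 was called higher and 1 lower. In controls most of that sum was Retn, which fell from 7.06 ± 2.34 to 1.32 ± 1.23 CPM (edgeR adjusted p = 2.5e-05), whereas Adrb3 rose from 0.0512 ± 0.108 to 2.04 ± 1.07 CPM (edgeR adjusted p = 5.2e-09). The defining adipocyte marker Adipoq was at 0 in 11 of 12 controls and in 1 of 11 PFNA libraries, with a PFNA mean of 0.394 CPM. The 8 proliferation genes summed to 299 to 593 CPM in controls and 248 to 862 CPM with PFNA, with 5 called higher and 0 lower. With the oocyte marker share as a covariate Acly, Acaca, Fasn, Scd1 and Scd2 were again called lower and Elovl5 and Fads1 higher. The part of the endothelial, theca, granulosa, adipocyte and proliferation genes in the results was not tested.

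The PFNA effect differed between the windows for 8 of the 10 genes (limma, ovulation minus maturation, adjusted p under 0.05), 5 more negative and 3 more positive in the ovulation window, where 67.7% of 11215 genes differed, 35.6% more negative and 32.0% more positive. The control libraries and tables are separate in the windows. For Acly, Acaca, Fasn and Scd1 the differences were -1.10 (SE 0.17), -1.13 (SE 0.14), -1.12 (SE 0.14) and -1.12 (SE 0.21) on the log2 scale, with limma adjusted p of at most 1.4e-05. Srebf1 went the other way, with a difference of 0.52 (SE 0.12, limma adjusted p = 0.00026), since it was lower during maturation and had a fold change near 0 during ovulation. Fads1 was lower in one window and higher in the other, with a difference of 0.93 (SE 0.17, limma adjusted p = 4.7e-06), and Elovl5 differed by 0.71 (SE 0.17, limma adjusted p = 0.00031).

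Scd2 differed by -0.37 (SE 0.16, limma adjusted p = 0.047), a call that was lost in 27 of 44 fits that each left out 1 library, with adjusted p from 0.050 to 0.084. These were the fits without maturation PFNA replicate 1, 2, 3, 4, 5, 6, 8 or 9, maturation control replicate 2, 7, 8, 9, 11 or 12, ovulation PFNA replicate 1, 3, 4, 5, 7, 8 or 11, or ovulation control replicate 1, 3, 6, 9, 10 or 11. The call was also lost in 4 of 5 other alternatives, with limma adjusted p of 0.12 with median-ratio size factors, 0.12 without maturation PFNA replicates 1 and 2 together, 0.099 with the replicate block and 0.094 on recovered reads, and was kept with a pseudocount of 0.1 (0.048). A difference was not found for Elovl6, at 0.04 (95% interval -0.41 to 0.48, limma adjusted p = 0.89), nor for Fads2, at 0.13 (95% interval -0.37 to 0.63, limma adjusted p = 0.66). These intervals include differences as large as that of Scd2.

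**Figure D3:**
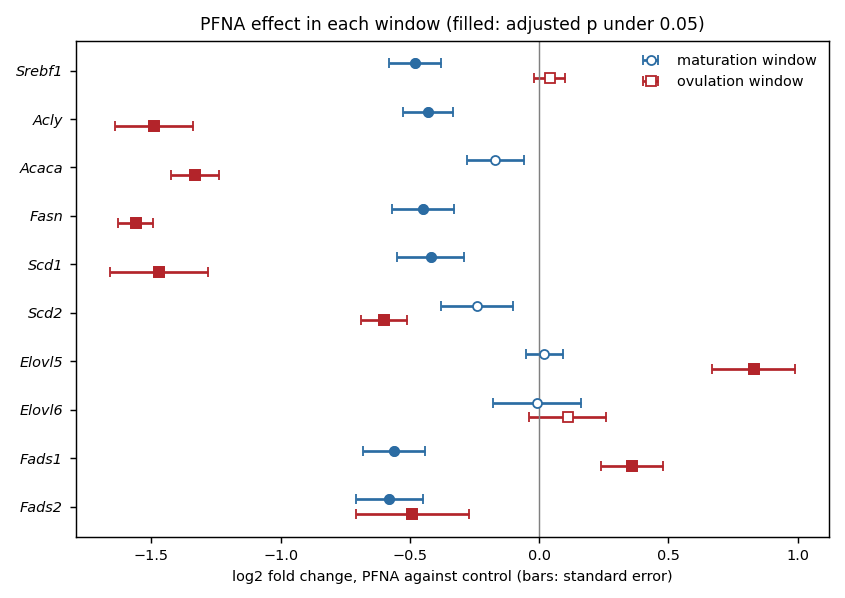
Log2 fold change of each gene, PFNA against control (horizontal axis, bars are standard errors), in the maturation window (circles, limma on TPM) and the ovulation window (squares, edgeR on counts), with filled symbols for adjusted p under 0.05. Acly, Acaca, Fasn and Scd1 lie farther left in the ovulation window, and Srebf1, Elovl5 and Fads1 farther right.

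Ratios of 2 genes within a library do not depend on library scaling, and show which pairs moved apart. During ovulation Fasn over Srebf1 had a lowest, median and highest ratio of 2.78, 3.31 and 3.89 in controls and of 0.973, 1.09 and 1.31 with PFNA. Here 11 of 11 PFNA libraries lay below every control, as they already did for Fasn alone. During maturation the medians were 3.85 and 3.98, with groups that overlapped. Fads1 over Fads2 was 0.730, 1.04 and 1.35 in controls and 1.40, 1.74 and 2.59 with PFNA during ovulation, so that 11 of 11 PFNA libraries lay above every control although the levels of each gene overlapped. During maturation, where both genes were lower, the medians of that ratio were 3.87 and 3.83. Scd1 over Scd2 had medians of 0.137 and 0.0656 during ovulation, with 9 of 11 PFNA libraries below every control, and of 0.0414 and 0.0382 during maturation. Also taken during ovulation were Fasn over Acaca, with 3 of 11 PFNA libraries below every control, and Elovl5 over Elovl6, with 9 of 11 above. Ratios were chosen after values were seen and have no test. Those of the maturation window also carry the genes' spans, so they compare libraries and not windows.

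**Figure D4:**
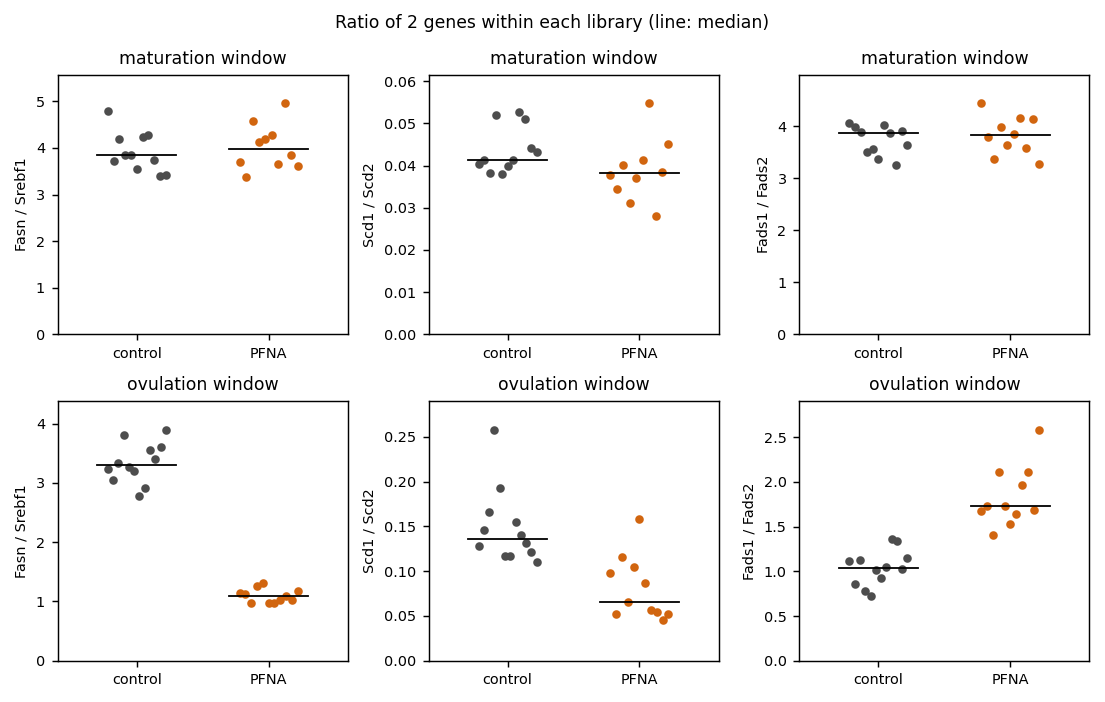
Ratio of 2 genes within each library (vertical axes, from 0; TPM in the upper row, CPM in the lower row), with 1 point per library and a line at the median of each group. In the ovulation window Fasn over Srebf1 and Fads1 over Fads2 show no overlap between control and PFNA libraries, and in the maturation window the groups overlap in each ratio.

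Levels of different genes were compared as CPM per kb of the longest transcript. In maturation controls Scd2 was highest at 996 ± 154 (SD, n = 11) CPM per kb, followed by Fads1 at 152 ± 20.1, Acly at 143 ± 19.7 and Fads2 at 126 ± 25.0, neighbours that lay within each other's spread. Fasn, Elovl5, Srebf1, Elovl6 and Scd1 followed at 104 to 50.1, and Acaca was lowest at 16.2 ± 2.77 CPM per kb. In ovulation controls Scd2 was again highest, at 298 ± 40.5 (SD, n = 12) CPM per kb, and Acly was next at 239 ± 41.1. Elovl5, Fasn, Fads2, Scd1, Fads1 and Srebf1 lay between 67.5 and 42.8, and Elovl6 and Acaca were lowest at 17.3 ± 1.69 and 9.58 ± 1.37 CPM per kb. With PFNA in the ovulation window Elovl5 took the second place, at 120 ± 54.2 (SD, n = 11) CPM per kb, while Acly lay at 85.2 ± 30.2, within each other's spread. The tables were made with different gene models, so levels were not compared between windows.

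Genes that supply carbon and NADPH to synthesis were mixed. During maturation 2 of 9 were called higher and 4 lower, and during ovulation 2 higher and 3 lower. Slc25a1, the mitochondrial citrate carrier upstream of Acly, fell in both windows, from 538 ± 41.1 to 375 ± 95.3 TPM (log2 fold change -0.55, limma adjusted p = 0.00066) and from 114 ± 9.72 to 64.4 ± 6.38 CPM (-0.82, edgeR adjusted p = 6e-12). Acss2, which makes acetyl-CoA from acetate, had log2 fold changes of -0.51 in the maturation and 1.14 in the ovulation window. Malic enzyme Me1 was higher during maturation (0.53), and pyruvate carboxylase Pcx was higher during ovulation (0.88). Pgd, of the pentose phosphate pathway, had log2 fold changes of 0.19 and -0.57 in the respective windows.

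Other synthesis enzymes and regulators had 0 genes higher and 1 lower of 6 tested during maturation, and 3 higher and 1 lower of 6 during ovulation. Acacb, the carboxylase whose malonyl-CoA acts at the mitochondrion, fell from 7.50 ± 1.59 to 2.88 ± 1.81 TPM during maturation (log2 fold change -1.21, limma adjusted p = 8.7e-05). During ovulation it rose from 5.53 ± 3.23 CPM by a log2 fold change of 1.91 (edgeR adjusted p = 3.2e-07), opposite in sign to Acaca. Of the mitochondrial synthesis enzymes, Oxsm rose during ovulation (0.88) and Mcat fell (-0.56).

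Of 8 genes of SREBP and LXR control tested during maturation, 3 were lower and 0 higher, with Mlx, the partner of the carbohydrate-responsive factor ChREBP, at -0.47 and Nr1h2, which encodes LXR-beta, at -0.19. During ovulation 6 of 10 were lower and 2 higher. Insig1, which holds SREBP in the endoplasmic reticulum and is itself a SREBP target, fell from 263 ± 43.0 to 77.3 ± 22.4 CPM (log2 fold change -1.77, edgeR adjusted p = 1.3e-11), and no PFNA library reached the lowest control. Nr1h2 was lower (-0.41), Mbtps1, a protease that cleaves SREBP, was higher (0.40), and Mlxipl, which encodes ChREBP, was higher (1.01) at a low level of 1.70 and 3.43 CPM.

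Among other elongation enzymes, 1 of 7 was higher and 3 lower during maturation, and 3 of 9 were higher and 5 lower during ovulation. Hacd3, the dehydratase of the elongation cycle, was higher during maturation (0.50), and its reductases Hsd17b12 and Tecr were lower (-0.30 and -0.31). Elovl4, of very-long-chain synthesis, fell during ovulation from 29.2 ± 7.76 to 5.25 ± 1.74 CPM (-2.47, edgeR adjusted p = 3.2e-12), and Elovl1 fell (-0.56), while Elovl2 (0.80) and Tecr (0.70) rose. Other desaturases and electron donors had 0 higher and 2 lower of 5 during maturation and 1 higher and 4 lower of 5 during ovulation. Fads3 was lower in both windows (-0.53 and -1.86). Cytochrome b5 genes, which encode electron carriers, went apart during ovulation, with Cyb5b at -1.10 and Cyb5a at 0.64. Cyb5a was lower during maturation (-0.50).

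Downstream genes of fatty acid activation and esterification had 2 of 9 higher and 3 lower during maturation, and 2 of 9 higher and 6 lower during ovulation. Dgat2, which completes triglycerides, fell during maturation from 8.44 ± 1.06 to 2.69 ± 3.20 TPM (log2 fold change -1.65, limma adjusted p = 8e-05). Of its 10 PFNA libraries 9 were under the lowest control and 1 was above the highest. Gpam, the first step of glycerolipid synthesis, was higher in both windows (0.35 and 1.13), and Agpat2, the next acylation, was lower in both (-0.30 and -0.55). Of the genes that activate fatty acids with CoA, Acsl5 was higher during maturation (0.29) and Acsl3 lower during ovulation (-0.91). Lpin1, which makes diacylglycerol, was higher during ovulation (1.20). Of 8 indicator genes of PPAR, the fatty acid receptors, 6 were higher and 0 lower during maturation, and 5 were higher and 2 lower during ovulation, with Angptl4, an inhibitor of lipoprotein lipase, at log2 fold changes of 2.02 and 1.28.

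**Figure D5:**
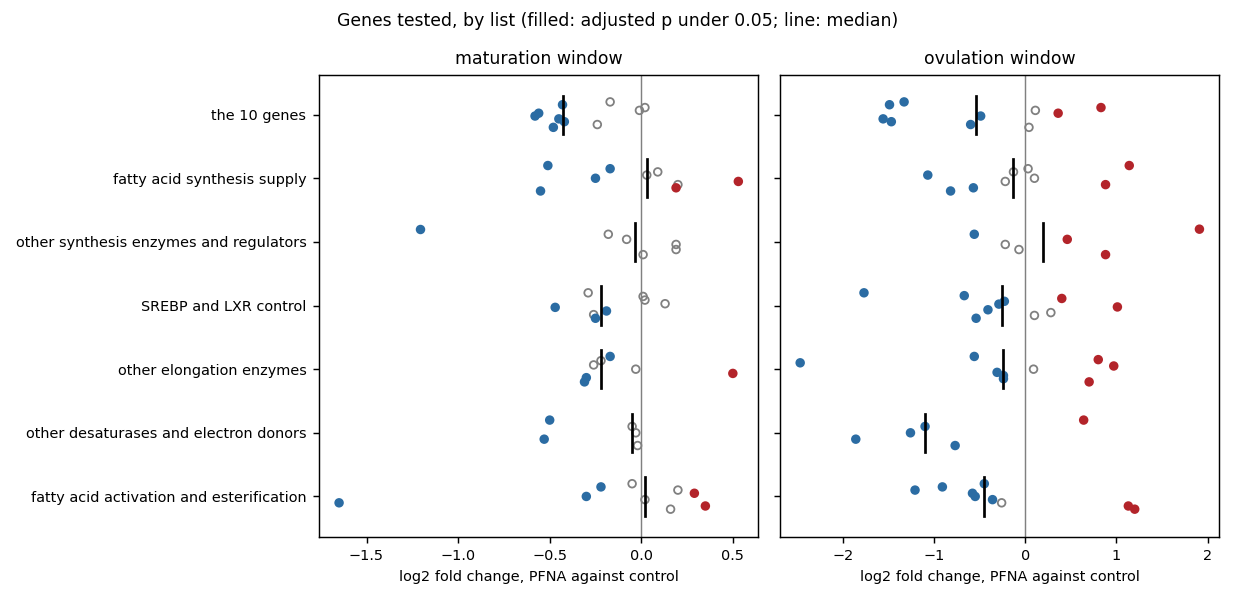
Log2 fold changes, PFNA against control (horizontal axes, on scales that differ between windows), of the genes tested in each list, with filled points for adjusted p under 0.05 (blue lower, red higher) and a black line at the median. The 10 genes have medians of -0.43 and -0.55, and the other desaturases and electron donors have a median of -1.10 in the ovulation window.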

How the data were processed

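Libraries were made from poly-A RNA with random hexamer priming, per the labels' protocols, and Partek, Bowtie2 and HISAT2 are named, without roles or versions, in the submitters' processing notes. The authors deposited TPM values for the maturation window, although the table is named as raw counts. Tested on the values, they scale with genomic span (slope -0.997 on log2 scales across 7618 genes), and 85.1% to 86.6% of values per library were whole reads within 0.02, so reads were recovered. For the ovulation window the authors deposited expected counts (14.9% not whole), which were rounded to whole numbers. The annotation version and the use of strand in counting are not given in the sources used here.

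The maturation window was tested with limma 3.58.1 (R 4.3.3) on log2(TPM + 1), with intensity trend and robust fitting, where a gene's mean reached 1 TPM. This scale understates the change of low genes. The ovulation window was tested with edgeR 4.0.16 (filterByExpr, TMM, robust quasi-likelihood). Standard errors of edgeR are the log2 fold change over the root of its F. The windows' difference is the difference of their limma effects (log2(CPM + 1) in the ovulation window), with degrees of freedom by Satterthwaite. All p-values are adjusted by Benjamini-Hochberg over all genes tested, with a threshold of 0.05. DESeq2 1.42.0, other scalings, filters, covariates and sample sets were alternatives. Scripts were tested on simulated data.

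The 10 genes and the lists were chosen with earlier results of these data known. Beside the 10, each list gives at most the 2 genes called higher and the 2 called lower with the smallest p per window, and markers where they stand beside a result. Angptl4 was named after its values were seen. The column taken as maturation control 6 differs from its title by 1 letter. No maturation control 4 is among the samples of the series. No library repeated another (lowest chi-square per degree of freedom within a group 7.54). Exons of Srebf1 share 1.93% of their bases with Rai1 on the opposite strand, and those of Elovl6 share 0.529% with Gm35986. Coordinates are 1-based, on GRCm38.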

Additional observations from a re-analysis of the deposited data

Results flagged for a closer look

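The PFNA effect differed between the maturation and the ovulation window for 8 of the 10 genes, by limma's test of the difference itself, and for this reason they are listed. Of all 11215 genes tested 67.7% differed, so this share is near the background. On the log2 scale, as ovulation minus maturation, the values were 0.52 for Srebf1, -1.10 for Acly, -1.13 for Acaca, -1.12 for Fasn, -1.12 for Scd1, -0.37 for Scd2, 0.71 for Elovl5 and 0.93 for Fads1. Across the fits that each left out 1 library, the value ranged from 0.46 to 0.57 for Srebf1, from 0.86 to 0.98 for Fads1 and from -0.45 to -0.32 for Scd2, whose call was lost in 27 of these 44 fits and in 4 of 5 other alternatives. In the maturation PFNA group, the levels of the 10 genes were also searched for a library apart from the others by Dixon's test, which chance meets in about 1 of 20 groups, and 0 were found.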

How the results depend on the processing

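Under every alternative run, 6 genes were called lower during maturation, except 7 with the oocyte share as a covariate (limma, and edgeR on recovered reads), and Acaca was not tested at a mean of at least 5 TPM. Members called ranged from 7 to 8 during ovulation and from 7 to 8 for the difference, also when each library was left out. Alternatives on recovered reads were chosen after seeing the data. All genes called during maturation numbered 4030 and rose to 6139 (2957 higher) with edgeR on recovered reads without PFNA replicates 1 and 2. With the replicate block those called higher numbered 1032 instead of 1824. Replicate numbers did not pair the libraries (correlations of deviations from -0.138 to 0.168 over 9 maturation pairs and from -0.193 to 0.0726 over 11 ovulation pairs, and 0 libraries most like their own number), and with the replicate block 6, 7 and 7 members were called in the maturation window, the ovulation window and their difference, Fads2 (-0.49) and Scd2 (-0.29) being those lost. Only values that never passed the threshold changed sign. During maturation Elovl5 was -0.0078 with median-ratio size factors, -0.0264 with the replicate block, -0.0053 with edgeR on recovered reads and -0.0404 with the oocyte covariate added to the latter, and -0.0113 to 0.061 with single libraries left out. Elovl6 during maturation was 0.143 without PFNA replicates 1 and 2, 0.0341 on recovered reads, 0.153 with both changes, and -0.0856 to 0.0944 with single libraries left out. Elovl6 was -0.0689 to 0.17 during ovulation and -0.0829 to 0.113 for the difference with single libraries left out, and its difference was -0.115 without maturation PFNA replicates 1 and 2. The cause was not tested. Without a filter on low counts the median log2 fold change of all genes in the ovulation window was 0.260 instead of 0.039. Each of the 10 genes had at least 319 counts or recovered reads in every library.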

Other observations

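Single libraries moved several of the 10 genes at once, a pattern noticed after values were seen. Maturation control replicate 11 had the lowest control level of all 10 genes, such as 71.6 TPM of Acly and 289 TPM of Fasn, and without it the same number of genes, 6, was called. Ovulation PFNA replicate 6 had the highest PFNA levels of Acly (704 CPM), Scd1 (186 CPM), Elovl5 (745 CPM) and Elovl6 (236 CPM) and the lowest of Srebf1 (160 CPM) and Fasn (155 CPM).

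Over the 11 maturation controls, the genes outside the 10 whose log2 levels were most like those of Fasn were Cep290, Foxk2 and Xpo7 (Pearson r of 0.986, 0.973 and 0.972), and most like those of Scd1 were Idh1, Wrn and Dcaf12 (0.968, 0.956 and 0.940). Over the 12 ovulation controls they were Heatr3, Atad3a and Nsun2 for Fasn (0.912, 0.896 and 0.894), and Msmo1, Med12l and Cyp51 for Scd1 (0.929, 0.922 and 0.920). Msmo1 and Cyp51 encode enzymes of cholesterol synthesis. Among the 10 genes, Fasn and Acly had an r of 0.747 in maturation and 0.005 in ovulation controls, and Scd1 and Elovl5 had 0.758 and 0.874. These values describe choices from 13711 and 13434 genes, across libraries that share a table and its scaling, and carry no test. In maturation controls, replicate 11 was lowest for all 10 genes, which can raise r among them, and r without it was not taken.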
